A study of Mus musculus with 16 samples.

Results

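Flk1+ cells are early mesoderm isolated from differentiating mouse embryonic stem (ES) cells by the surface receptor FLK1, which is encoded by Kdr. The 4 arrays labelled Flk+, out of 16 in the series, were used to ask which genes differed in this population when Sp1 was disrupted. Sp1+/+ and Sp1-/- cells were each represented by 2 arrays, and the other 12 arrays held 3 later populations, namely hemogenic endothelium before (HE1) and after (HE2) the gain of CD41 and hematopoietic progenitors. The Sp1+/+ arrays came from E14 ES cells, the Sp1-/- arrays from the line named SP1KO, and both are labelled as strain C57BL/6. In the knockout line the protein made from the Sp1 locus is cut short and lacks the domain that binds DNA. Each genotype is named as 1 line, so differences between the lines that have nothing to do with Sp1 cannot be told apart from its loss. The wild-type arrays also shared one slide and the knockout arrays a second one, so an effect of the slide cannot be told apart from one of genotype. ES cells of both genotypes were grown on embryonic fibroblast feeders and then passaged without them, embryoid bodies were formed, and Flk1+ cells were pulled out with an antibody on a magnetic column and not by a flow sort.

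Sp1 is a zinc-finger transcription factor that binds GC-rich boxes in the promoters of many widely expressed genes, a class of site that it shares with other Sp and Klf factors. In the embryo, pluripotent epiblast cells pass through the primitive streak, where Nodal, Wnt and FGF signals lead them towards mesoderm or endoderm. Flk1+ mesoderm holds precursors of blood, endothelium and heart, and the transcription factors ETV2, TAL1, LMO2, FLI1 and GATA2 direct its hemangioblast branch.

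The arrays are one-color Agilent arrays on which the brightness of a spot measures the RNA bound to a probe. Levels below are normalised intensities on the log2 scale, and a change is the mean of the 2 Sp1-/- arrays minus the mean of the 2 Sp1+/+ arrays, with its standard error (SE). Between 67.0% and 77.1% of the spots of an array were well above background, and 0 spots were saturated. The median SD between the 2 replicates was 0.0919 for Sp1+/+ and 0.0849 for Sp1-/- Flk1+ cells over the genes tested, and the small number of arrays limits the precision. The 2 replicates correlated at 0.995 for Sp1+/+ and at 0.996 for Sp1-/- over 37116 genes, and arrays of different genotype at 0.988 to 0.993. The labels call the replicates independent biological replicates while a legend of the study speaks of technical ones, so p-values measure a spread between arrays that may be technical. That spread was pooled over all 16 arrays of the series. For a gene that varies more between Flk1+ replicates than in later populations, the SE and p-value therefore understate the spread of the Flk1+ arrays.

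Sp1 itself stood at 12.53 and 12.56 in Sp1+/+ and at 10.29 and 10.25 in Sp1-/- Flk1+ cells, a fall of 4.84-fold (log2 change -2.27, SE 0.176, limma adjusted p = 5.98e-05). Its signal in the knockout line was still well above background on both arrays, and which part of the transcript the probe reads was not determined. The marker that gave the population its name was bright in both genotypes. Kdr stood at 13.97 and 13.87 in Sp1+/+ and at 14.26 and 14.38 in Sp1-/- cells. The genotypes did not overlap, but the difference of 0.40 (SE 0.250) did not pass the test (limma adjusted p = 0.436).

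A gene was called changed at an unadjusted p of 0.01 or less from limma together with a change of at least 2-fold. The study gives limma and these limits for its own array analysis. What is called the methods' t-test below is Student's t-test, which the study names for comparing wild-type, knockout and rescue samples and not for its arrays. Of 20121 genes with a symbol, 488 were called, 223 higher and 265 lower in Sp1-/- cells, which is 2.43% of them (1.11% higher and 1.32% lower). A change of 4-fold or more was seen in 26 of the higher and 24 of the lower genes. Among all 37154 genes tested, with or without a symbol, 613 were called (1.65%), 289 higher (0.778%) and 324 lower (0.872%), and the largest adjusted p among them was 0.0947. The median change over all genes was 0.01. With 2 arrays against 2, the genotypes did not overlap in 55.2% of the genes with a symbol, so separation of the arrays alone says little about a gene. They did not overlap in any of the 613 called genes, so separation does not set one called gene apart from another.

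The largest rises in Sp1-/- cells brought together X-linked genes of the reproductive tract and placenta, regulators of the epiblast and endoderm, and a heart muscle gene. Rhox5, an X-linked homeobox gene known from testis and placenta, stood at 9.12 and 9.31 in Sp1+/+ and at 14.57 and 14.61 in Sp1-/- cells, a rise of 41.5-fold (log2 change 5.38, SE 0.174, limma adjusted p = 1.05e-07). Cer1, a secreted inhibitor of Nodal and BMP signals, stood at 6.43 and 6.08 in Sp1+/+ cells, where it was above background on 1 of 2 arrays. In Sp1-/- cells Cer1 stood at 10.23 and 9.30, a log2 change of 3.51 (SE 0.227, limma adjusted p = 1.79e-05). For both genes the knockout arrays lay far above the wild-type arrays.

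Otx2, a homeobox factor of the epiblast and anterior embryo, stood at 10.99 and 8.69 in Sp1+/+ and at 13.63 and 12.77 in Sp1-/- cells, a log2 change of 3.36 (SE 0.546, limma adjusted p = 0.00447). The 2 wild-type arrays differed widely for Otx2, and its change ran from 2.21 without Sp1+/+ replicate 2 to 4.51 without Sp1+/+ replicate 1. Foxa2, a forkhead factor of endoderm and axial mesoderm, stood at 6.71 and 6.53 against 9.55 and 9.05, a log2 change of 2.68 (SE 0.284, limma adjusted p = 0.000378). Actc1, which encodes cardiac actin, stood at 9.48 and 8.39 against 12.19 and 11.98, a log2 change of 3.15 (SE 0.736, limma adjusted p = 0.027), and was not called without Sp1+/+ replicate 2. Foxa2 was low and even in the wild-type arrays, whereas Actc1 varied between them.

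Other large rises were Trap1a, an X-linked tumour antigen gene (3.04), Ctse, the aspartic protease cathepsin E (2.85), and Stag3, a cohesin subunit of meiosis (2.62). They were followed by Chac1, a glutathione-degrading enzyme induced by amino acid stress (2.58). Fgf5, a growth factor of the epiblast, rose by 2.55, and Lrig3, a leucine-rich repeat membrane protein, by 2.50. Their limma adjusted p-values lay between 1.49e-06 for Stag3 and 0.00293 for Fgf5. Trap1a and Stag3 stood out by the closeness of their replicates, Trap1a at 6.44 and 6.54 against 9.70 and 9.36, and Stag3 at 8.96 and 8.97 against 11.74 and 11.43. Fgf5 was lower in Sp1+/+ replicate 2 (6.87) than in replicate 1 (8.11), and its change ran from 1.93 to 3.17 when single arrays were left out.

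**Figure D1:**
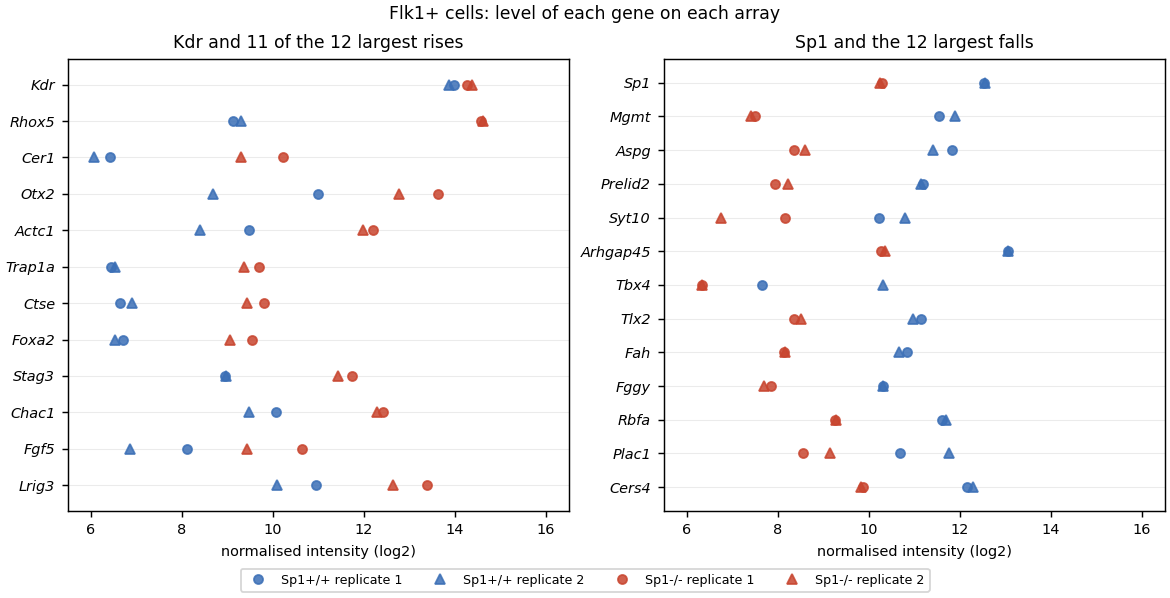
Normalised intensity (log2, horizontal axis) of Kdr and 11 of the 12 genes that rose most (left) and of Sp1 and the 12 genes that fell most (right) on each of the 4 Flk1+ arrays, Sp1+/+ in blue and Sp1-/- in red, with replicate 1 as a circle and replicate 2 as a triangle. Colors are fully apart in every line, which was a condition for choosing the rises and falls. Rhox5 at 9.12 and 9.31 against 14.57 and 14.61 is the widest rise and Mgmt at 11.55 and 11.90 against 7.50 and 7.42 the widest fall.

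The largest falls were seen in genes of DNA repair, amino acid breakdown, signalling and transcription. Mgmt, which repairs alkylated guanine in DNA, stood at 11.55 and 11.90 in Sp1+/+ and at 7.50 and 7.42 in Sp1-/- cells, a log2 change of -4.27 (SE 0.123, limma adjusted p = 5.87e-08). Tlx2, a homeobox factor of early mesoderm, stood at 11.14 and 10.98 against 8.37 and 8.52, a log2 change of -2.62 (SE 0.0985, limma adjusted p = 2.65e-07). Fah, the last enzyme of tyrosine breakdown, stood at 10.85 and 10.66 against 8.15 and 8.17, a log2 change of -2.60 (SE 0.154, limma adjusted p = 1.16e-05). In all of them the replicates of a genotype were close and the genotypes lay far apart.

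Aspg, an asparaginase, stood at 11.84 and 11.41 against 8.35 and 8.60, a log2 change of -3.15 (SE 0.321, limma adjusted p = 0.000294). Arhgap45, a GTPase-activating protein, stood at 13.06 and 13.05 against 10.27 and 10.37, a log2 change of -2.74 (SE 0.178, limma adjusted p = 1.79e-05). Tbx4, a T-box factor known from the allantois and hindlimb, stood at 7.66 and 10.32 against 6.34 and 6.34, a log2 change of -2.65 (SE 0.584, limma adjusted p = 0.0204). Tbx4 was high on 1 wild-type array only, and its change ran from -1.32 without Sp1+/+ replicate 2 to -3.98 without Sp1+/+ replicate 1. Syt10, a synaptotagmin, changed by -3.05 (SE 0.943, limma adjusted p = 0.0842), and its call was lost without Sp1-/- replicate 2 and without either Sp1+/+ array. The other large falls were Prelid2 (-3.09), the carbohydrate kinase gene Fggy (-2.53), the mitochondrial ribosome assembly factor gene Rbfa (-2.38), the X-linked placental gene Plac1 (-2.37) and the ceramide synthase gene Cers4 (-2.37). Their limma adjusted p-values lay between 2.74e-06 for Prelid2 and 0.00532 for Plac1.

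Because Sp1 binds GC boxes, the 250 bases before the listed start sites of the genes were searched for GGGCGG on both strands. Promoters from RefSeq on GRCm38.p6 were matched for 15961 of the tested genes with a symbol (79.3%) and for 380 of the called ones (77.9%), so what follows describes the matched genes and is void as a check of the whole set. At least 1 GC box was present in 32.7% of all 32851 promoters of this length, in 45.4% of the 19550 promoters of tested genes and in 52.6% of the 15444 promoters of genes well above background on all 4 arrays. Among called genes it was present in 67.5% of the 243 promoters of genes that fell and in 50.4% of the 246 promoters of genes that rose. For 3 or more boxes the shares were 16.9% in the lower genes, 17.1% in the higher genes and 14.8% in genes well above background. The GT box GGGTGG was found in 38.7% of the promoters of genes that fell and 35.0% of those of genes that rose, CCAAT in 29.2% and 32.1%, and TATAAA in 7.82% and 8.94%, against 32.9%, 35.2% and 8.09% among genes well above background. No binding was measured on these arrays, and a match describes letters only. Promoters of Sp1 and of genes with large changes are given here to compare one fallen and one risen gene that hold GC boxes with risen genes that hold none. They run from 5′ to 3′ on the strand of the gene, and capitals mark GC boxes, written CCGCCC where the box lies on the other strand.
Sp1, chr15:102406066-102406315, plus strand: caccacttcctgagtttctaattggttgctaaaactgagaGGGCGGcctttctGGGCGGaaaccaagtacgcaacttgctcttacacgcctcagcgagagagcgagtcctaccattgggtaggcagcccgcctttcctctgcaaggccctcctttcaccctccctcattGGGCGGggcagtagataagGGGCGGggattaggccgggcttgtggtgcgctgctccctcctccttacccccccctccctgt
Fah, chr7:84605943-84606192, minus strand: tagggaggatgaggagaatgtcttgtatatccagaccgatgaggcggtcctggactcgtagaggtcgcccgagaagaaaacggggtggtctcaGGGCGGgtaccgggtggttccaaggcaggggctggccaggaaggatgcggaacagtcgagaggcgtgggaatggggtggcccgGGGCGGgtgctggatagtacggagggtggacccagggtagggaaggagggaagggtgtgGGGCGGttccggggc
Chac1, chr2:119350992-119351241, plus strand: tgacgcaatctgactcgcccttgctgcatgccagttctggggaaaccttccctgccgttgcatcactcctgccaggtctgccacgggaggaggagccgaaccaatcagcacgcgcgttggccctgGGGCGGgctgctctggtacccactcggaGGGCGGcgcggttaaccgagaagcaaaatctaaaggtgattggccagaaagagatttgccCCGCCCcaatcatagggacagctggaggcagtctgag
Rhox5, chrX:37754358-37754607, plus strand: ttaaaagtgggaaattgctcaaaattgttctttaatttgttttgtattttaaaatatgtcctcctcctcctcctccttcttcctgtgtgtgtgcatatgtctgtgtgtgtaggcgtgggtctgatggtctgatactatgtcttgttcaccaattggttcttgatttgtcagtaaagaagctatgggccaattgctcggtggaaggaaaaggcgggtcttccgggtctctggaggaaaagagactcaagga
Cer1, chr4:82885152-82885401, minus strand: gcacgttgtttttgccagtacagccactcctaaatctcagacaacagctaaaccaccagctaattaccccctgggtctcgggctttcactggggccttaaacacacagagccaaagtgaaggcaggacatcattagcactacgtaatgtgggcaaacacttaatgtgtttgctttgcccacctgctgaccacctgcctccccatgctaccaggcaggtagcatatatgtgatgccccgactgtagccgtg
The Sp1 promoter held 4 boxes and those of Fah, which fell, and Chac1, which rose, held 3 each, while those of Rhox5 and Cer1, which rose the most, held 0. These promoters were picked by hand for display, and those of the largest falls are not shown. They do not stand for the groups, in which 16.9% of lower and 17.1% of higher genes' promoters held 3 or more boxes.

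To describe the biology beyond single genes, 72 lists of cell type markers, pathways and complexes were read against the shares called among all genes with a symbol, and 23 of the lists had 0 called members. Each count of called members below is to be read beside those shares, which were 1.11% higher and 1.32% lower. With 2.43% of all genes with a symbol called, 0 calls in a short list say little about its members. Markers of the Flk1+ mesoderm held no called gene. Of 12 such genes 0 were called by limma (2.43% of all genes with a symbol were), and their median change was -0.25 against 0.01 over all genes. At an unadjusted p under 0.05, 2 were higher and 5 lower, against 24.7% of all genes in either direction, and the methods' t-test called 0. The members went both ways, with differences from -0.98 to 1.11, and the list stood at a mean level of 12.58 and 12.51 in Sp1+/+ and 12.32 and 12.46 in Sp1-/- cells. Foxf1, a forkhead factor of lateral mesoderm, had the smallest p, at 8.93 and 8.54 in Sp1+/+ against 7.52 and 7.99 in Sp1-/- cells (log2 difference -0.98, SE 0.222, limma adjusted p = 0.0232). It missed the 2-fold limit and was called with an offset of 16 and without replicate 2 of either genotype. Leaving out single arrays gave 2 higher and 2 lower calls without Sp1+/+ replicate 1, 1 and 1 without Sp1+/+ replicate 2, and 0 and 3 without Sp1-/- replicate 2. Etv2, which directs the hemangioblast program, stood at 14.72 and 14.44 against 14.31 and 14.30, a difference of -0.28 that did not pass the test (limma adjusted p = 0.2).

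Hemangioblast transcription factors went both ways in Sp1-/- cells, with a median change of -0.28 over 17 genes, and 1 of them was called. Fli1, an ETS factor of blood and endothelium, stood at 11.26 and 12.20 in Sp1+/+ and at 10.03 and 10.69 in Sp1-/- cells, a log2 change of -1.37 (SE 0.270, limma adjusted p = 0.0121). The genotypes did not overlap for Fli1, but the call was lost without Sp1+/+ replicate 2, where its change was -0.90. The list had 4 lower calls without Sp1+/+ replicate 1, 3 without Sp1-/- replicate 2, 0 without Sp1+/+ replicate 2 and 0 in a fit of the Flk1+ arrays alone. The partner factors Lmo2, Gata2 and Tal1 differed by -0.94, -0.79 and -0.68 and did not pass the 2-fold limit. They were chosen after their values were seen, and 7 of the 17 members had a positive difference, up to 0.88. At an unadjusted p under 0.05, 2 members were higher and 6 lower, against 24.7% of all genes with a symbol in either direction. Sp1+/+ replicate 2 held the highest mean level of this list, 11.67 against 11.15 in replicate 1, and 11.11 and 11.33 in Sp1-/- cells.

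Endothelial and blood markers held no called gene with all arrays. Of all genes with a symbol 2.43% were called and 24.7% had an unadjusted p under 0.05, so 0 of 16 says little about either list. Of 16 endothelial genes 0 were called by limma, 2 higher and 1 lower at an unadjusted p under 0.05, and their median change was 0.05, with 9 of 16 positive. Of 16 blood genes 0 were called, 0 higher and 2 lower at that p, with a median change of -0.19 and 3 of 16 positive, and the methods' t-test called 0 in either list. Flt1, a VEGF receptor of endothelium, stood at 11.16 and 12.03 against 12.62 and 12.79, a difference of 1.11 that narrowly missed the limit of the p-value (limma adjusted p = 0.0997). It was called with the replicate block, with only genes well above background in a Flk1+ group, and without Sp1+/+ replicate 2, where 2 endothelial genes were called higher. Myb, a factor of blood progenitors, had the smallest p of the blood genes, at 9.62 and 10.66 in Sp1+/+ against 8.27 and 9.06 in Sp1-/- cells (log2 difference -1.48, SE 0.502, limma adjusted p = 0.115). The genotypes did not overlap for Myb, which was called with the replicate block on the Flk1+ arrays alone and without Sp1+/+ replicate 1, where 2 blood genes were called lower. Epor, the erythropoietin receptor gene, was also lower on both knockout arrays, with a difference of -0.45 that did not pass the test. Hbb-bh1, an embryonic globin, stood at 10.37 and 11.78 against 10.61 and 10.21, and the genotypes overlapped. Runx1, a factor needed for blood formation from endothelium, stood at 10.70 and 11.28 against 10.60 and 10.83, and overlapped as well. The 2 Sp1+/+ replicates differed from each other in these lists, and 15 of 16 endothelial and 14 of 16 blood genes were higher in replicate 2 than in replicate 1. In Sp1-/- cells 12 of 16 endothelial and 10 of 16 blood genes were also higher in replicate 2. Their mean levels were 9.25 and 10.02 for endothelium and 8.42 and 9.01 for blood in Sp1+/+ cells, against 9.74 and 9.91 and 8.33 and 8.39 in Sp1-/- cells.

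**Figure D2:**
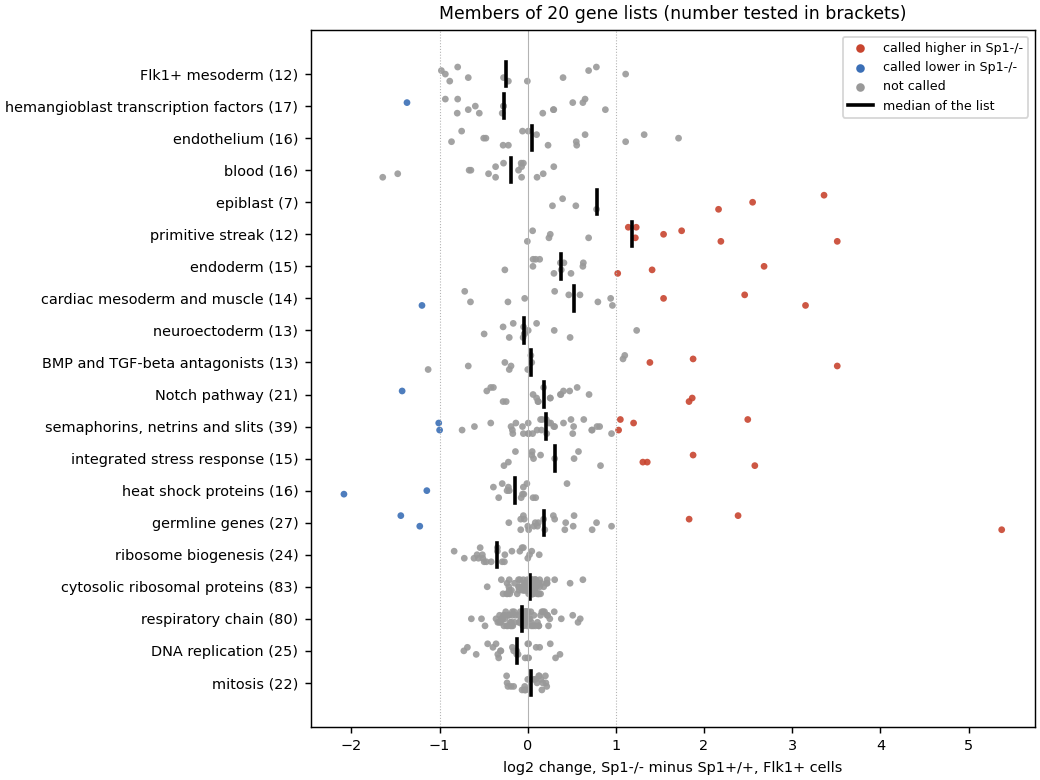
Log2 change between Sp1-/- and Sp1+/+ Flk1+ cells (horizontal axis) of every tested member of 20 gene lists, with the number of genes in brackets, called genes in red (higher) or blue (lower), other genes in grey, list medians as black bars and dotted lines at a 2-fold change. The primitive streak and epiblast lists lie to the right with medians of 1.18 and 0.78, while ribosomal protein, respiratory chain and mitosis genes stay inside the dotted lines.

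Several genes of the primitive streak and the epiblast rose in Sp1-/- Flk1+ cells. Of 12 primitive streak genes 7 were called higher and 0 lower, with a median change of 1.18, against 1.11% called higher over all genes with a symbol. Of 7 epiblast genes 3 were called higher, namely Otx2, Fgf5 and Cdh1, with a median change of 0.78. Eomes, a T-box factor that opens mesoderm and endoderm formation, stood at 14.67 and 13.65 in Sp1+/+ and at 15.45 and 15.31 in Sp1-/- cells, a log2 change of 1.22 (SE 0.270, limma adjusted p = 0.0211). Fgf8, a growth factor needed for cells to leave the streak, stood at 11.61 and 11.09 against 13.55 and 12.64, a log2 change of 1.75 (SE 0.252, limma adjusted p = 0.00232). Nodal, the ligand that patterns the streak, stood at 9.11 and 9.18 against 10.68 and 9.89, a log2 change of 1.14 (SE 0.207, limma adjusted p = 0.00804). All of them were higher on both knockout arrays than on both wild-type arrays, as was every called gene that rose.

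Lhx1, a LIM homeobox factor of the organizer region, changed by 2.19 (limma adjusted p = 0.0062), Mesp2, a factor of segmenting mesoderm, by 1.54 (limma adjusted p = 0.0539), and Gsc, a homeobox factor of the organizer, by 1.23 (limma adjusted p = 0.0747). Cdh1, the epithelial cadherin that is lost as mesoderm forms, stood at 7.58 and 7.38 against 9.85 and 9.43, a log2 change of 2.16 (SE 0.340, limma adjusted p = 0.00381). The streak genes also differed between the wild-type replicates, with a mean level of 11.50 in replicate 1 and 10.61 in replicate 2 against 12.49 and 11.92 in Sp1-/- cells. Only 1 of the 12 was higher in Sp1+/+ replicate 2 than in replicate 1, the opposite of the endothelial and blood genes. In Sp1-/- cells 0 of the 12 were higher in replicate 2, a shift in the same direction. The count of streak genes called higher was 8 without Sp1+/+ replicate 1, 4 without Sp1+/+ replicate 2, 4 without Sp1-/- replicate 1 and 7 without Sp1-/- replicate 2. It was 3 when only the Flk1+ arrays were fitted, 4 with the scanner's processed signal and 0 by the methods' t-test. Mesp2 and Gsc were among those not called without Sp1+/+ replicate 2 or without Sp1-/- replicate 1, Eomes without Sp1+/+ replicate 2, and Nodal without Sp1-/- replicate 1. In bulk RNA a shift in the share of cells of one kind and a shift in the RNA per cell cannot be told apart, and the part that either played was not tested.

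**Figure D3:**
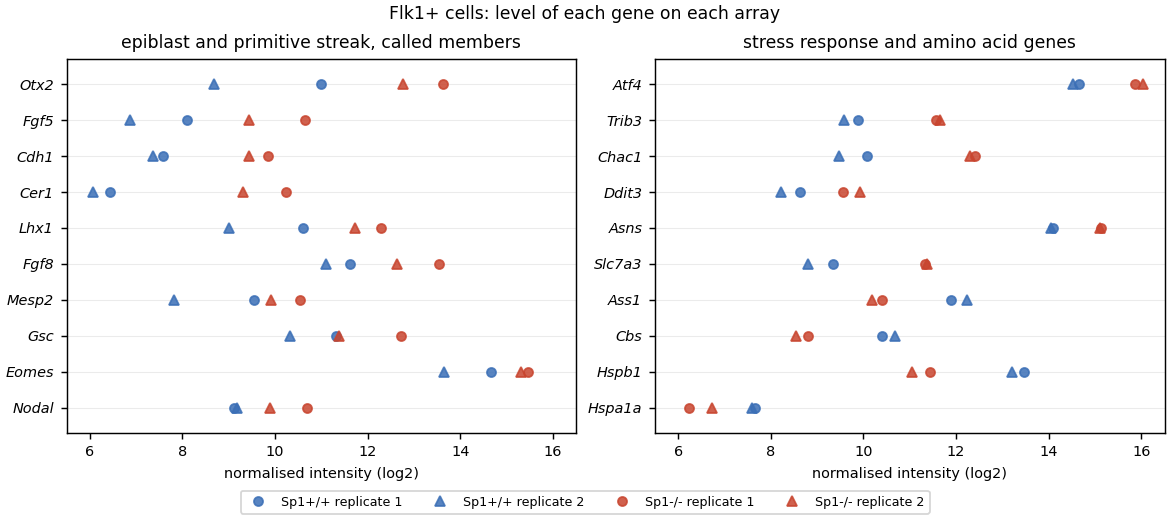
Normalised intensity (log2, horizontal axis) on each of the 4 Flk1+ arrays of the called epiblast and primitive streak genes (left) and of stress response, amino acid and heat shock genes (right), Sp1+/+ in blue and Sp1-/- in red, replicate 1 as a circle and replicate 2 as a triangle. On the left the wild-type triangle lies below the wild-type circle for all genes but Nodal. On both sides no gene has overlapping genotypes, which holds for every called gene.

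Endoderm and heart genes followed with fewer calls. Of 15 endoderm genes 14 had a positive difference, and the median change was 0.38. Called higher were 3 and lower 0, against 1.11% and 1.32% of all genes with a symbol. Besides Foxa2 these were Foxa1, a related forkhead factor, and Hnf4a, a nuclear receptor of liver and visceral endoderm. Foxa1 stood at 6.72 and 6.66 in Sp1+/+ and at 8.22 and 7.98 in Sp1-/- cells, a log2 change of 1.41 (SE 0.148, limma adjusted p = 0.000358). Hnf4a was not well above background on either Sp1+/+ array, at 6.24 and 6.27, and stood at 7.20 and 7.35 in Sp1-/- cells, at least 2.03-fold higher (limma adjusted p = 0.000258), although it was not called without Sp1-/- replicate 2. All of these levels were low, and the wild-type replicates gave endoderm list means of 7.68 and 7.67 against 8.27 and 8.20 in Sp1-/- cells. A bound for a gene that is not well above background was taken on each array against the higher of its own signal and the lowest signal that was well above background, which here was its own signal.

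Of 14 cardiac genes 3 were called higher and 1 lower, against 1.11% and 1.32% of all genes with a symbol. The list median was 0.53. Myl7, the atrial myosin light chain, stood at 9.72 and 8.61 against 11.71 and 11.54, a log2 change of 2.46 (SE 0.347, limma adjusted p = 0.00207). Tbx5, a T-box factor of the heart field, stood at 7.90 and 7.51 against 9.27 and 9.22, a log2 change of 1.54 (limma adjusted p = 0.000194). Myh6, the atrial myosin heavy chain, went the other way, from 8.49 and 8.37 to 7.33 and 7.13, a log2 change of -1.20 (limma adjusted p = 0.026), and it was not called with the processed signal, with the mean over probes or without Sp1-/- replicate 2. Of 13 neuroectoderm genes 0 were called by limma, with 1 higher and 0 lower at an unadjusted p under 0.05, and the methods' t-test called 0, but 1 was called higher without Sp1-/- replicate 2. Of 10 fibroblast genes, which also mark feeder cells, 0 were called higher and 1 lower, Thy1 by -1.37. Of 12 pluripotency markers 1 was called higher, Esrrb by 1.51, and 1 lower, Dppa5a by -1.50, and 11 had a positive difference with a median of 0.29.

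Genes that restrain Nodal rose among the BMP and TGF-beta antagonists. Of 13 BMP and TGF-beta antagonists 3 were called higher, namely Cer1, Lefty1 and Lefty2, and 0 lower, with a median change of 0.03. Over all genes with a symbol 1.11% were called higher and 1.32% lower. Lefty1 stood at 6.74 and 6.47 in Sp1+/+ and at 8.50 and 7.48 in Sp1-/- cells (log2 change 1.39, limma adjusted p = 0.00779). Lefty2 stood at 11.02 and 9.17 against 12.50 and 11.44 (log2 change 1.87, limma adjusted p = 0.0373). Neither was called without Sp1-/- replicate 1, nor Lefty2 without Sp1+/+ replicate 2, so that 1 antagonist was called higher in the former case and 2 in the latter, against 4 without Sp1+/+ replicate 1 or without Sp1-/- replicate 2. Among 16 ligands Nodal and Bmp5 (1.23) rose and Tgfb2 (-1.25) and Gdf1 (-1.17) fell, but Bmp5 was not called without Sp1+/+ replicate 2, nor Tgfb2 without Sp1-/- replicate 1. Of 21 receptors, Smad proteins and targets 0 were called by limma, with 3 higher and 1 lower at an unadjusted p under 0.05, and the t-test called 0. The smallest p belonged to the activin receptor gene Acvr2b, with a difference of 0.74 (limma adjusted p = 0.0053).

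FGF ligands and receptors counted 2 higher (Fgf5 and Fgf8) and 0 lower of 27, and among 18 feedback and immediate early genes Egr1, a zinc-finger factor induced by ERK, rose by 1.67. Without Sp1+/+ replicate 1, 5 genes of that list were called higher. In the Notch pathway 2 of 21 genes were called higher and 1 lower, against 1.11% and 1.32% of all genes with a symbol. Dll1, a Notch ligand of the presomitic mesoderm, stood at 8.02 and 6.74 against 9.52 and 8.90 (log2 change 1.83, limma adjusted p = 0.00684). Dll3, a ligand-like protein that dampens Notch there, stood at 11.25 and 9.92 against 12.91 and 11.99 (log2 change 1.86, limma adjusted p = 0.0381). Hey2, a Notch target of heart and artery, stood at 8.43 and 9.04 against 7.20 and 7.42 (log2 change -1.43, limma adjusted p = 0.0327). The Notch ligands were lowest and Hey2 highest in Sp1+/+ replicate 2, and without that array neither Dll3 nor Hey2 was called. Both were also not called without Sp1-/- replicate 1, and a fit of the 4 Flk1+ arrays alone called 0 Notch genes higher.

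Wnt genes moved singly. The secreted Wnt inhibitor Sfrp5 rose by 1.71, while Rspo1, which boosts Wnt signals, fell by 1.50, the Dickkopf family member Dkk3 by 1.59 and the receptor Fzd9 by 1.68 on the log2 scale. Of 20 VEGF and PDGF pathway genes 0 were called by limma, with 4 higher and 1 lower at an unadjusted p under 0.05, and of 14 Hedgehog pathway genes 0, with 3 higher and 1 lower. The t-test called 0 in both lists, and without either Sp1+/+ array 1 VEGF or PDGF pathway gene was called higher. The smallest p belonged to the ligand gene Pdgfa, with a difference of 0.47 (limma adjusted p = 0.0378), and to the Hedgehog effector gene Gli1, with 0.63 (limma adjusted p = 0.00373). Of 39 axon guidance genes 4 were called higher and 2 lower, against 1.11% and 1.32% of all genes with a symbol. Slit1, a repulsive guidance cue, stood at 9.39 and 8.55 against 11.53 and 11.40, a log2 change of 2.50 (SE 0.228, limma adjusted p = 0.000159). Its knockout arrays were well apart from the wild-type arrays, whereas the semaphorin genes Sema7a (1.20), Sema3a (1.05) and Sema4g (1.03) lay near the 2-fold limit, as did the receptor genes Unc5c and Plxnd1, which fell. Unc5c and Plxnd1 were not called without Sp1+/+ replicate 2 or without Sp1-/- replicate 1, which left 0 lower, and each semaphorin gene lost its call without at least 1 array.

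Genes of the integrated stress response, in which ATF4 answers to shortage of amino acids and other stresses, gave calls in 1 direction. Of 15 genes 4 were called higher and 0 lower, with a median change of 0.31, and the same count was reached when any single Flk1+ array was left out. The t-test called 2, and over all genes with a symbol limma called 1.11% higher and 1.32% lower. Atf4 stood at 14.66 and 14.53 in Sp1+/+ and at 15.87 and 16.03 in Sp1-/- cells, a log2 change of 1.35 (SE 0.125, limma adjusted p = 0.00016). Trib3, a pseudokinase induced by ATF4, stood at 9.88 and 9.59 against 11.56 and 11.66, a log2 change of 1.88 (SE 0.165, limma adjusted p = 0.000133). Chac1 stood at 10.08 and 9.47 against 12.41 and 12.29, and Ddit3, the transcription factor CHOP, at 8.64 and 8.23 against 9.56 and 9.92 (log2 change 1.30, limma adjusted p = 0.0153). The knockout arrays lay close to each other for Atf4, Trib3 and Chac1 and further apart for Ddit3. Ddit3 was not called at an adjusted p of 0.01 or with the replicate block on the Flk1+ arrays alone. Of 18 endoplasmic reticulum chaperones 0 were called by limma, with 0 higher and 5 lower at an unadjusted p under 0.05, and the t-test called 0. The smallest p belonged to the cochaperone gene Dnajb11, with a difference of -0.61 (limma adjusted p = 0.00471).

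Genes of amino acid supply divided. Asns, the asparagine synthetase and a target of ATF4, stood at 14.10 and 14.05 in Sp1+/+ and at 15.12 and 15.10 in Sp1-/- cells (log2 change 1.03, limma adjusted p = 0.00804), near the 2-fold limit, and was not called with the processed signal. Slc7a3, a transporter of arginine and lysine, stood at 9.35 and 8.80 against 11.33 and 11.38 (log2 change 2.28, limma adjusted p = 0.000159). Ass1, which makes the precursor of arginine, stood at 11.88 and 12.24 against 10.39 and 10.18 (log2 change -1.77, limma adjusted p = 0.000133). Cbs, the first enzyme from homocysteine to cysteine, fell by 1.87 on the log2 scale (limma adjusted p = 0.0145). Of 19 synthesis genes 1 thus rose and 2 fell, and of 13 transporters 1 rose. Over all genes with a symbol 1.11% were called higher and 1.32% lower.

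Among 16 heat shock proteins 0 were called higher and 2 lower, against 1.11% and 1.32% of all genes with a symbol. The list median was -0.14. Hspb1, which encodes a small heat shock protein, stood at 13.46 and 13.20 against 11.44 and 11.05, a log2 change of -2.08 (SE 0.337, limma adjusted p = 0.00431). Hspa1a, an inducible HSP70 gene with a near-identical neighbour whose RNA the probe may also bind, stood at 7.66 and 7.59 against 6.24 and 6.72 (log2 change -1.15, limma adjusted p = 0.00167), and it was not called without Sp1-/- replicate 1. Of 18 p53 targets 1 rose, the BH3-only gene Pmaip1 by 1.23, and 2 fell, Phlda3 by 1.25 and Ccng1 by 1.22 on the log2 scale. All of them lost their call without Sp1+/+ replicate 2 and in a fit of the Flk1+ arrays alone, 1 fell and 0 rose without Sp1-/- replicate 1, and 4 fell without Sp1+/+ replicate 1.

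Of 27 germline genes 3 were called higher and 2 lower, against 1.11% and 1.32% of all genes with a symbol. The list median was 0.18, and 7 members were below background on all 4 arrays. Besides Rhox5, the X-linked meiosis gene Tex11 was not well above background in Sp1+/+ cells, at 6.20 and 6.10, and stood at 8.47 and 8.60 in Sp1-/- cells, at least 5.22-fold higher (limma adjusted p = 2.65e-07). Ddx4, the germ cell RNA helicase VASA, stood at 7.61 and 7.32 against 9.35 and 9.24, a log2 change of 1.83 (SE 0.161, limma adjusted p = 0.000133). All 3 were called whichever single Flk1+ array was left out. The synaptonemal complex genes Sycp3 and Syce2 fell, by 1.44 and 1.23 on the log2 scale, and Sycp3 was not called without Sp1+/+ replicate 1. The list called 8 higher with the processed signal and 5 with an offset of 16.

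Imprinted genes, expressed from 1 parental copy, held a few changes in both directions. Of 38 such genes 2 were called higher and 1 lower, against 1.11% and 1.32% of all genes with a symbol. The list median was 0.17. Asb4, a maternally expressed gene of early vascular cells, stood at 13.23 and 12.72 in Sp1+/+ and at 14.94 and 15.06 in Sp1-/- cells (log2 change 2.02, limma adjusted p = 0.0136). Meg3, a maternally expressed noncoding RNA, stood at 12.11 and 12.94 against 13.72 and 13.47 (log2 change 1.07, limma adjusted p = 0.0838), and was not called when either knockout array or Sp1+/+ replicate 1 was left out. H19, another maternally expressed noncoding RNA, stood at 11.98 and 12.58 against 10.26 and 10.93 (log2 change -1.69, limma adjusted p = 0.0219), and was not called without Sp1+/+ replicate 2 or Sp1-/- replicate 1. Asb4 alone was called in all of these cases.

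Genes that every cell needs held no called gene in the lists of ribosomal proteins, respiratory chain, mitosis and DNA replication. Of all genes with a symbol 2.43% were called and 24.7% had an unadjusted p under 0.05, so 0 calls in lists of this size say little. Of 83 cytosolic ribosomal protein genes 0 were called by limma, with a median change of 0.03 and 4 higher and 9 lower at an unadjusted p under 0.05. Of 80 respiratory chain genes 0 were called, with a median of -0.06 and 5 higher and 11 lower at that p. Of 22 mitosis genes and 25 DNA replication genes 0 were called, with medians of 0.03 and -0.13 and with 1 and 8 genes under that p in either direction. Ribosome biogenesis factors, which assemble ribosomes in the nucleolus, showed small differences on one side. Of 24 such genes 0 were called, but 21 had a negative difference, 14 were lower and 0 higher at an unadjusted p under 0.05, and the list median was -0.34. At that p 12.4% of all genes with a symbol were lower. The t-test called 0 in each of these lists. Their smallest p-values belonged to the replication helicase gene Mcm5 (difference -0.73, limma adjusted p = 0.00228), the cytochrome oxidase gene Cox4i1 (-0.64, limma adjusted p = 0.00216), the ribonucleoprotein gene Nop10 (-0.47, limma adjusted p = 0.00967), the ribosomal protein gene Rpl39l (0.48, limma adjusted p = 0.00807, not well above background on either Sp1+/+ array) and the mitosis gene Birc5 (-0.23, limma adjusted p = 0.172).

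The change in Flk1+ cells was then compared with the mean change in the 3 later populations by a contrast of the limma model. Of 20121 genes with a symbol, 534 (2.65%) were called for a different change, and 1.68% were called among all 37154 genes. The change was more positive in Flk1+ cells than later for 355 of the 534 (1.76%) and more negative for 179 (0.89%). Of the genes called in Flk1+ cells, 169 were also called for a different change, 96 of them higher and 59 lower in both tests. Both tests use the same Flk1+ values, so this overlap is not independent support. For the same reason, genes picked below for a large change in Flk1+ cells are favoured to differ from later populations. Tlx2 fell by 2.62 in Flk1+ cells and differed by -0.15, 0.04 and 0.05 in HE1, HE2 and progenitors (difference between the changes -2.60, limma adjusted p = 5.33e-06). Cer1 rose by 3.51 in Flk1+ cells and differed by 0.03, -0.04 and -0.11 in the later populations (difference 3.55, limma adjusted p = 0.000223). Foxa2 rose by 2.68 and had negative differences in the later populations (difference 3.33, limma adjusted p = 0.000907). The streak and epiblast genes Cer1, Otx2, Fgf5 and Cdh1 had a more positive change in Flk1+ cells than later. Cdh1 differed by -0.57, -0.54 and -1.28 in the later populations. These genes were picked from their lists, in which 3 of 12 streak and 4 of 7 epiblast genes were called for a different change. Eomes, Gsc and Mesp2 were not called for it.

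Other large changes were also seen in the later populations. Rhox5 rose by 5.38 in Flk1+ cells and by 4.56, 4.67 and 5.33 in HE1, HE2 and progenitors, and Trap1a by 3.04 against 2.73, 3.02 and 3.50. Fah fell in all populations, with log2 changes of -2.60 in Flk1+ cells and -2.08, -2.51 and -2.83 later. Atf4 rose by 1.35 in Flk1+ cells and differed by 0.74, 1.41 and 1.25 later, and Chac1 by 2.58 and by 1.25, 2.73 and 2.32. Mgmt fell less in Flk1+ cells, with a log2 change of -4.27 against -6.18, -5.55 and -4.34 (difference between the changes 1.09). Actc1 and Lrig3 rose in Flk1+ cells and had negative differences in progenitors. Actc1 changed by 3.15 in Flk1+ cells, 3.23 in HE1 and 1.99 in HE2 but by -2.22 in progenitors (limma adjusted p = 0.076). Lrig3 changed by 2.50, 0.765, 0.485 and -1.245 in the same order (limma adjusted p = 0.0176 in progenitors).

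**Figure D4:**
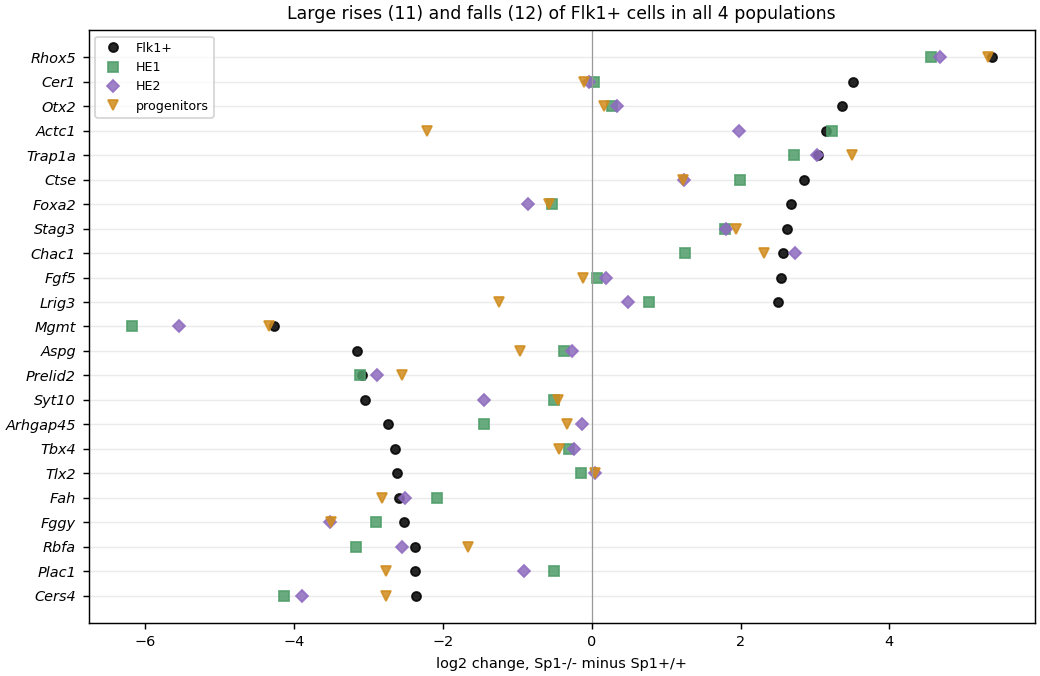
Log2 change between Sp1-/- and Sp1+/+ cells (horizontal axis) of 11 of the 12 genes that rose most and the 12 that fell most in Flk1+ cells, each in Flk1+ cells (black circles), HE1 (green squares), HE2 (purple diamonds) and progenitors (orange triangles), as means of 2 arrays against 2. Cer1, Otx2, Fgf5, Tbx4 and Tlx2 moved away from 0 in Flk1+ cells and stayed near it later, whereas Rhox5, Trap1a, Prelid2, Fah and Fggy kept their change in all 4 populations.

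The genes that fell were not spread evenly over the genome. Of the 265 genes called lower 43 lay on chromosome 8, which is 16.2% of them, while that chromosome holds 4.88% of the genes with a symbol, and 2 chromosome 8 genes were called higher (Cdh1 and Gpt2, the latter by 1.06). Across the 522 genes of chromosome 8 with a mean level of at least 9 that were well above background, the median change was -0.37, with quartiles of -0.58 and -0.14, and 85.4% were negative. On the other autosomes the median of 8404 such genes was 0.01 and 48.1% were negative, and medians of single chromosomes ran from -0.15 for chromosome 11 to 0.07. The lower values ran along the whole chromosome, since its genes in order of position gave medians of -0.39, -0.35, -0.35, -0.41 and -0.35 in 5 equal parts. Both knockout arrays lay below both wild-type arrays, with medians of -0.19 and -0.17 against 0.20 and 0.17 relative to the mean of the 4. A like shift was seen in HE1 (-0.39), HE2 (-0.35) and progenitors (-0.35).

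Called chromosome 8 genes included Cers4, the nucleoside triphosphatase gene Ntpcr (-2.03), the palmitoyltransferase gene Zdhhc2 (-1.74), the DNA glycosylase gene Neil3 (-1.49) and the growth factor gene Nrg1 (-1.48). Members of other groups named above also lie there, among them the called genes Gdf1, Syce2 and Cdh1. Foxf1, which had the smallest p of the Flk1+ mesoderm list and was not called, lies there too. The Defa defensin genes gave 5 of 17 called lower, but these are near-identical copies that probes cannot keep apart, so their number is uncertain. Without chromosome 8, 443 genes with a symbol were called, 221 higher and 222 lower. DNA copy number was not measured on these arrays, and its part in the shift was not tested.

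**Figure D5:**
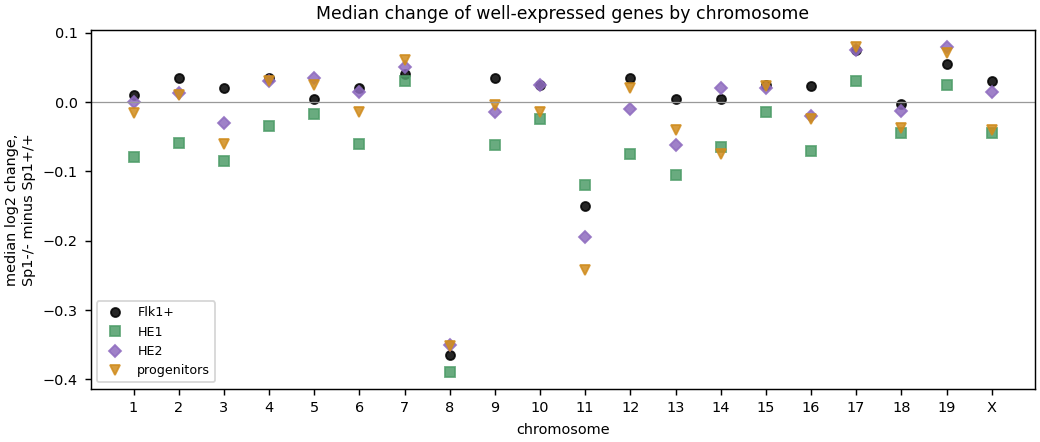
Median log2 change between Sp1-/- and Sp1+/+ cells (vertical axis) of well-expressed genes on each chromosome (horizontal axis) in Flk1+ cells (black circles), HE1 (green squares), HE2 (purple diamonds) and progenitors (orange triangles). Chromosome 8 lies between -0.39 and -0.35 in all 4 populations, chromosome 11 is next with -0.15 in Flk1+ cells, and all others lie closer to 0.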

How the data were processed

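RNA of the 16 samples was labelled with Cy3 and hybridized to one-color Agilent arrays. The deposited log2 values, 1 per spot, were made by the authors with limma from scanner files of Agilent Feature Extraction (10.7.1.1 in the submitters' processing notes), by normexp background correction and quantile normalization. The methods state an offset of 16, but recomputation from the deposited intensity of each spot matched these values to within 0.005 with an offset of 50 and differed by up to 1.63 with 16. Control and outlier spots (95 to 182 per array) were left out, and a log2 value of 6 on at least 1 array was required. Of 37932 target names 20869 were matched to a RefSeq gene table (GRCm38.p6) by accession and 6 by symbol, and 17057 kept their target name. The brightest probe over 16 arrays stood for a gene. Of 288 further probes of called genes 233 (80.9%) had the same direction. Columns left unused numbered 0.

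Changes were tested with limma 3.58.1 (R 4.3.3) in a model of 8 groups over 16 arrays with 8 residual and 2.93 prior degrees of freedom, and p-values were adjusted over 37154 genes by the Benjamini-Hochberg method. On simulated data for this comparison, tested with 37154 genes, 99.5% of 200 genes changed by 2 on the log2 scale were recovered, with 37 false calls. The simulated noise was independent between arrays, without a slide effect or shared deviation of replicates. Among the 488 called genes with a symbol, 26 higher and 24 lower ones changed 4-fold or more. The simulation therefore does not describe the smaller changes or the error of the real calls. Figures and counts were made with Python 3.11.15, pandas 2.3.3 and matplotlib 3.10.9. Named are Sp1, Kdr, the 12 called genes that rose most and the 12 that fell most without overlap of the genotypes, up to 6 called members of each list and, where none was called, the member with the smallest p and up to 3 of the brightest. The text prints a part of them. Of the genes that rose most, 1 is not reported here. Lmo2, Gata2, Tal1, Gpt2, Ntpcr, Zdhhc2, Neil3, Nrg1 and the defensins fall outside this rule and were chosen after their values were seen. Members, lists and tests were chosen with earlier results of these data known, so none of their patterns is independent support. Same-numbered replicates of the 2 genotypes deviated together in Flk1+ cells (correlation 0.226) and HE1 (0.285) but not in HE2 and progenitors. The fit without a replicate block was kept, and counts with the block are given below. Alternatives were other values, filters, probes, thresholds, tests and samples. Sp1-rescue cells were not analysed here.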

Additional observations from a re-analysis of the deposited data

Results flagged for a closer look

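A change in Flk1+ cells that differed from the mean change of HE1, HE2 and progenitors was called by limma for 534 genes with a symbol (unadjusted p of 0.01 or less and a difference of at least 2-fold). Among the large rises and falls named above, the log2 difference between the changes was 3.55 for Cer1, 3.10 for Otx2, 3.33 for Foxa2, 2.50 for Fgf5, 2.50 for Lrig3 and 1.36 for Ctse, all of which rose more in Flk1+ cells. It was -2.61 for Aspg, -2.60 for Tlx2, -2.32 for Tbx4 and -2.10 for Arhgap45, which fell more in Flk1+ cells. For Cers4 (1.23) and Mgmt (1.09), which fell in every population, the fall was smaller in Flk1+ cells than later. All of these genes were picked for large changes in Flk1+ cells, and the same values enter the difference. A larger change in Flk1+ cells than later is thus favoured by the choice of genes. Groups of 2 arrays are too small for a search for single outlying arrays.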

How the results depend on the processing

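The 613 genes called in Flk1+ cells became 1358 with the scanner's processed signal and 176 by the methods' t-test, which is not the study's array test. That t-test called 0 after Benjamini-Hochberg adjustment (4942 genes had an unadjusted p of 0.05 or less), and there Sp1 (log2 change -2.27) also lost its call. At an adjusted p of 0.01 the count was 415 and at 0.05 it was 553. Leaving out single arrays gave 528 to 930 called genes, 930 of them without Sp1+/+ replicate 1, with 47.0% to 59.1% of them lower against 52.9% with all arrays. Lower genes became the minority without that array (47.0%), with the processed signal (43.6%) and without the genes of chromosome 8 (49.5%, 568 called), the last a setting chosen after seeing the data. Genes called for a different change numbered 623, ran from 490 to 861 without single arrays, and came to 1169 with the processed signal and 198 at an adjusted p of 0.01. Sp1 changed by -2.29 to -2.25 without single arrays. With an offset of 16, 801 genes were called of 28724 tested. Same-numbered replicates deviated together with a correlation of 0.226 for Flk1+ cells, 0.285 for HE1, -0.173 for HE2 and -0.112 for progenitors. Same-numbered replicates of both genotypes thus shared a part of their deviation in Flk1+ cells and HE1 but not later, and its cause was not tested. With the replicate number as a block 629 genes were called, and 577 with the block on the Flk1+ arrays alone, against 572 there without it. Of 115 called genes named by the rule, 115 kept their sign whichever Flk1+ array was left out and 56 their call in every setting but the t-test. The number not called was 28 without Sp1+/+ replicate 2, 24 without Sp1-/- replicate 1, 9 without Sp1-/- replicate 2, 8 without Sp1+/+ replicate 1 and 21 with the processed signal. The cause of these changes was not tested.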

Other observations

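Further groups held single called genes, against 2.43% called in either direction over all genes with a symbol. Among cell surface and matrix genes, 2 of 29 integrin genes rose, Itga8 (1.33) and Itga6 (1.25). Itga8 was not called without Sp1+/+ replicate 2, without either knockout array, in a fit of the Flk1+ arrays alone, with the processed signal or with an offset of 16, and its change ran from 0.59 to 2.07 without single arrays. Of 42 collagen genes 2 rose, Col14a1 (1.49) and Col23a1 (1.17), with a list median of 0.00. Without Sp1+/+ replicate 2, 2 collagen genes fell. The tight junction genes Cldn7 (1.30) and Tjp3 (1.20) rose, while the laminin gene Lama4 (-1.20) and the protease inhibitor gene Timp1 (-1.14) fell, Lama4 not without Sp1+/+ replicate 2 or Sp1-/- replicate 1. Among pluripotency factors Tdh, the threonine dehydrogenase of mouse ES cells, stood at 7.88 and 7.87 in Sp1+/+ and at 9.96 and 9.29 in Sp1-/- Flk1+ cells (log2 change 1.75, limma adjusted p = 0.000301). Esrrb, a nuclear receptor of the ES cell network, stood at 8.66 and 8.36 against 10.10 and 9.95 (log2 change 1.51, limma adjusted p = 0.000258), and Dppa2 differed by -1.20. The factors Gata3 and Twist1 fell by 1.21 and 1.31 on the log2 scale, and Twist1 was not called without Sp1-/- replicate 2 or without either Sp1+/+ array.

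In metabolism and defence the calls were few. Heph, a copper-dependent iron oxidase, rose by 1.94 and the zinc transporter gene Slc39a4 by 1.26. The glycolytic gene Aldoc fell by 1.12, the cholesterol synthesis gene Hsd17b7 by 1.10, Cpt1c by 1.26, the glutathione transferase gene Gsto1 by 1.45, the immunoproteasome gene Psmb8 by 1.45 and the interferon-induced gene Ifitm3 by 1.32. Hsd17b7 was not called without Sp1-/- replicate 1, and Cpt1c was not called without that array or Sp1+/+ replicate 2. Casp8, the caspase of death receptors, fell by 1.40, while the BH3-only gene Hrk rose by 1.08, but not without Sp1+/+ replicate 2. The placental homeobox gene Esx1 stood at 7.44 and 7.35 in Sp1+/+ cells and was not well above background in Sp1-/- cells, at 6.23 and 6.13, at least 2.32-fold lower (limma adjusted p = 0.0366), and it was not called without Sp1-/- replicate 2 or Sp1+/+ replicate 1. Of the called genes that rose, 171 of 223 had Sp1+/+ replicate 1 nearer to the knockout mean than replicate 2, and of those that fell 178 of 265. The share over all genes was not computed, so this cannot be read as a trait of called genes. Over 37116 genes Sp1+/+ replicate 1 correlated at 0.993 with either knockout array, and Sp1+/+ replicate 2 at 0.988 and 0.990.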
